A study of Ischnura elegans with 24 samples.

Results

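The comparison is between southern and northern larvae of a damselfly, Ischnura elegans, at the cooler of 2 rearing temperatures, 20 °C. The comparison rests on 12 of the 24 libraries of the series, chosen by their labelled temperature. Each of the 3 northern and 3 southern populations gave 2 pools, named a and b, and each pool held the RNA of 3 whole male larvae, so 36 larvae stand behind the 12 libraries. The larvae came from 8 to 9 mothers per population, were hatched and kept one by one in the laboratory up to the final larval stage, and were fed brine shrimp nauplii. No gene was altered and no agent was given in any group. By the labels, both groups shared temperature, sex, stage and food, and they differed in the latitude their population came from. The other 12 libraries, from larvae of the same populations at 24 °C, took part in the filters that set which contigs were tested, and are otherwise used to see whether the differences at 20 °C recurred in other larvae and whether they changed with temperature.

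Damselfly larvae are aquatic predators whose body temperature follows that of the water, so growth, feeding and the length of development depend on temperature. Populations of this species at high latitude pass through fewer generations in a year than those near the southern edge of its range, and latitudes differ in growth rate and in physiology when reared side by side. Differences that persist after rearing in a common environment are the usual sign that populations have diverged, although effects passed on by the mother can also last through larval life. The title of the series asks how the response to mild warming evolved across latitudes, and the contrast at 20 °C gives the distance between the latitudes in the cooler water.

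The measurements were read counts of contigs, transcript sequences that the Trinity program assembles from reads without a genome. Names of genes are not paired with contigs in the table, none of the identifiers matched the RefSeq gene table of the species, and no sequence of a contig is at hand. No contig can therefore be given a function here, the whole-body label could not be checked against marker genes, and contigs are described by their levels, their abundance and their Trinity gene, the group of contigs that the program takes as forms of 1 gene. Of 34095 contigs in the table, 1283 were at 0 in 10 or more of the 24 libraries and were left out, and 1716 more did not pass a filter on low counts. The remaining 31096 contigs, from 27058 Trinity genes, were tested. In whole bodies, less RNA per cell and fewer cells of a kind cannot be told apart.

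Library totals at 20 °C lay between 12061616 and 16407152 counts and overlapped between the latitudes. Between 32587 and 33066 contigs had at least 1 count in a library, and the number overlapped between the latitudes. On raw library totals, a count of 3 was worth 0.183 to 0.249 CPM, counts scaled to a common library size. The CPM levels given below also use TMM scaling factors, so a count of 3 is worth slightly more or less there. The library that stood most apart was northern pool 1b. Its 10 most abundant contigs took 15.03% of its counts, against 18.2% to 23.1% in the other 11, and the main counts are also given without it.

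The larvae of the 2 latitudes were arranged along the main axis of variation, but the ends of the groups touched. The first principal component of the 12 libraries held 22.8% of the variance. Northern pools lay between -105.3 and -1.23 on it and southern pools between -0.18 and 70.3, so no pool crossed over, yet northern pool 3b and southern pool 1a were neighbours. The second component, with 11.6%, set both pools of northern population 3 (-80.6 and -72.2) apart from all others, which lay between -4.27 and 30.2. Southern pools 2a, 3a and 3b, the 3 farthest out on the southern side, also had the highest scaling factors of the TMM normalisation (1.07 to 1.10, against 0.920 to 1.03 in the other 9). The part of these factors in the first component was not tested.

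**Figure D1:**
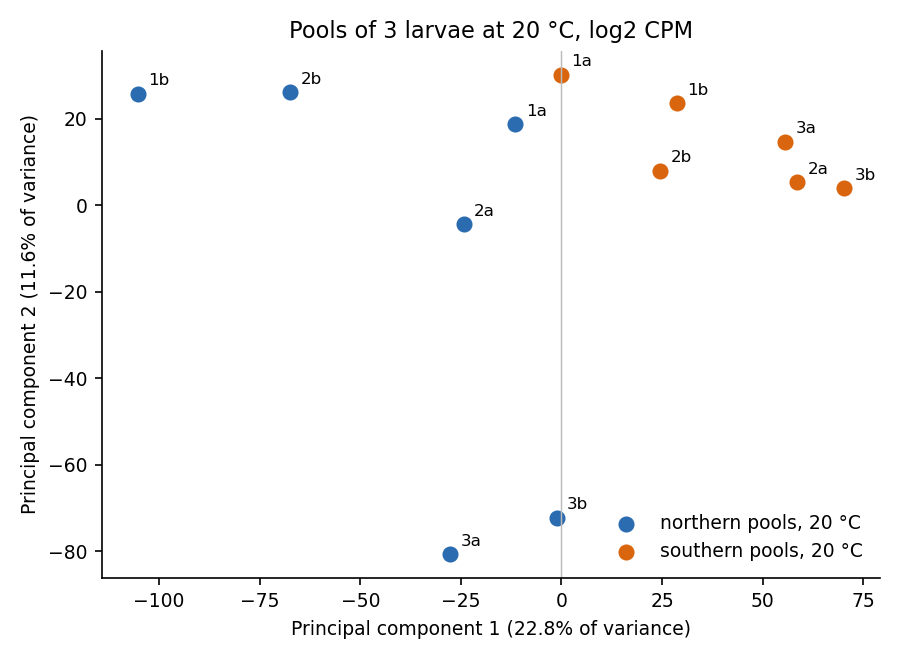
First 2 principal components of log2 CPM over 31096 contigs in the 12 pools of 3 larvae at 20 °C; blue points are northern and orange points southern pools, labelled by population and pool, and the axes give the share of variance. Northern and southern pools do not mix on component 1, where northern 3b (-1.23) and southern 1a (-0.18) are adjacent, and northern population 3 lies alone on component 2.

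Latitude held the smallest share of the variation but the largest amount per degree of freedom. A share grows with its degrees of freedom, so the raw shares are not compared directly. Over the tested contigs, latitude held 17.9% of the sum of squares of log2 CPM with 1 degree of freedom, the populations within a latitude 36.5% with 4, and the pools within a population 45.6% with 6. Per degree of freedom the latitudes differed 2.35 times as much as 2 pools of a population, and the populations of a latitude 1.20 times as much. In a single contig the latitudes held a median of 10.4%. Per degree of freedom, latitudes differed more than populations of a latitude in 53.6% of contigs. With northern pool 1b left out, latitude held 17.6%.

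The distances between single libraries gave the same order with wide overlap. The root mean square difference had a median of 0.783 log2 units between the pools of a population (6 pairs), 0.847 between northern populations (12 pairs), 0.820 between southern populations (12 pairs) and 0.892 between a northern and a southern pool (36 pairs). The closest pair across latitudes was at 0.780, below the median of pools of 1 population, and the widest, at 1.16, included northern pool 1b. With both pools of a population summed, northern population 2 and southern population 1 were the closest pair across latitudes (0.707), and northern population 1 and southern population 3 were the farthest apart (0.905). Populations of 1 latitude stood 0.618 to 0.759 apart in the north and 0.642 to 0.728 in the south.

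**Figure D2:**
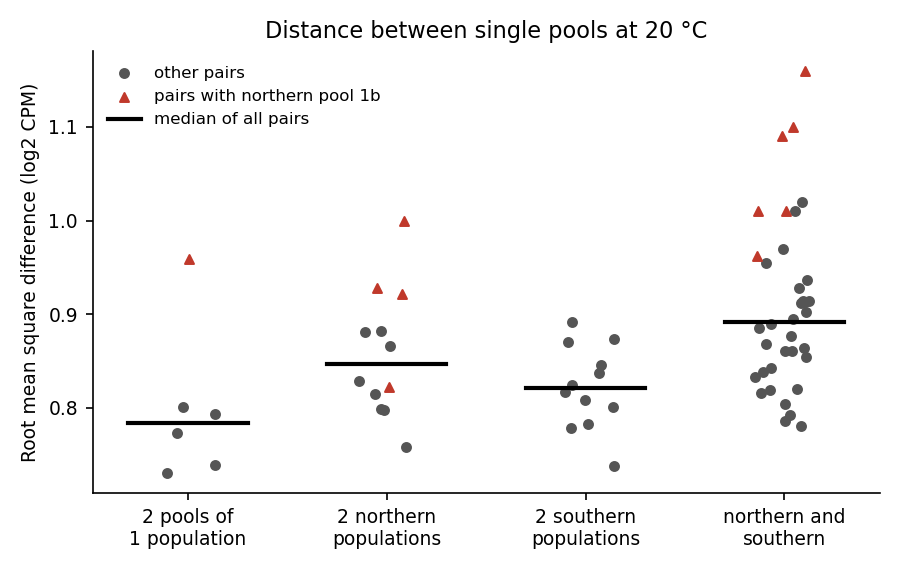
Root mean square difference in log2 CPM between every pair of single pools at 20 °C, by kind of pair; each point is 1 pair, red triangles are pairs with northern pool 1b, and bars are medians of all pairs. Medians run from 0.783 for pools of 1 population to 0.892 across latitudes, and the ranges overlap.

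Because latitude varies between populations, the population was the replicate. The 2 pools of each population were summed, and the 3 southern sums were tested against the 3 northern ones with edgeR's quasi-likelihood test. After Benjamini-Hochberg adjustment 0 of 31096 contigs (0%) passed an adjusted p of 0.05, and the smallest edgeR adjusted p was 0.164. At an unadjusted p under 0.05 there were 4514 contigs, 14.5% of those tested, where a share of 0.05 would pass if no contig differed. Without northern pool 1b edgeR called 0 contigs, and 3464 had an unadjusted p under 0.05. Of the 4514 contigs of the fit with all pools, 2603 were lower and 1911 higher in southern larvae. DESeq2, fitted to the same 6 sums, called 919 contigs (2.96%), with 665 lower and 254 higher in southern larvae. All 919 had an unadjusted edgeR p under 0.05, and 847 of them an edgeR adjusted p under 0.25. A limma fit to the 12 pools, in which population was a random block, gave 24 calls, 15 lower and 9 higher in southern larvae. Of these calls 23 were among the DESeq2 calls. The correlation between pools of a population in the limma fit was 0.0288, so it treated the 12 pools as nearly independent. Leaving out a population or a pool gave between 0 and 23 edgeR calls, with the 23 coming without northern population 3, the population set apart on the second component.

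The larger differences lay mostly on the side of the northern larvae. Among the contigs at an unadjusted p under 0.05, the median log2 difference was -0.82 for those lower in southern larvae and 0.55 for those higher. At least 2-fold differences were seen in 959 of the lower and 413 of the higher contigs. Over all tested contigs 49.0% were higher in southern larvae and the median log2 difference was -0.01. The TMM scaling centres the differences, so these values were set by it, and the imbalance is relative to that centre. The share of higher contigs among those at an unadjusted p under 0.05 was 42.3%, and it was 38.3% without northern pool 1b and 37.0% to 46.3% over all the alternatives tried.

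**Figure D3:**
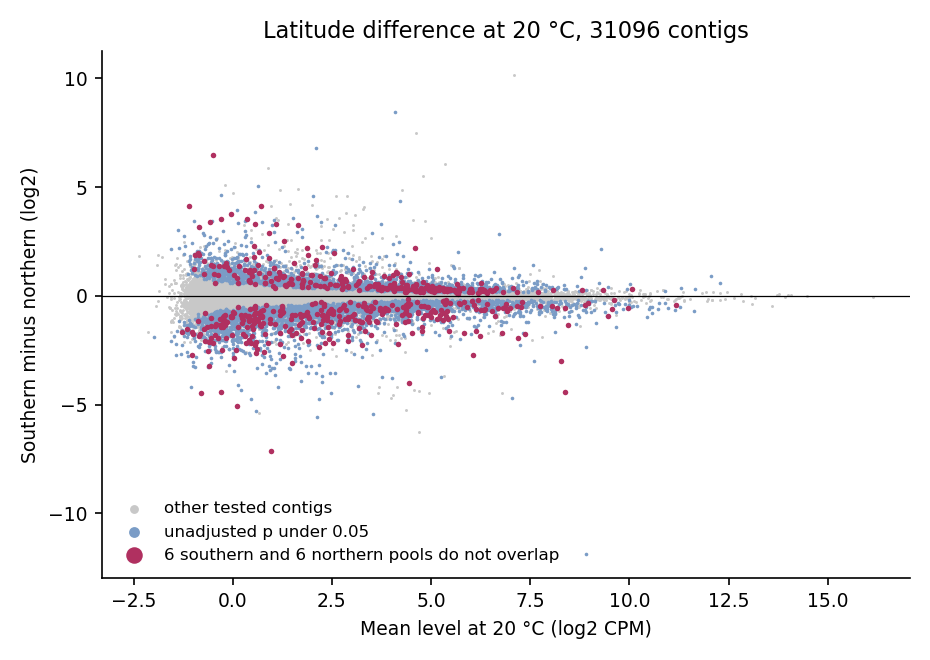
Log2 difference between southern and northern larvae at 20 °C (vertical axis) against the mean level in log2 CPM (horizontal axis) for 31096 contigs; blue points have an unadjusted p under 0.05 and red points are contigs whose 6 southern and 6 northern pools do not overlap. Red and blue points spread farther below 0 than above it, with 144 red points at least 2-fold lower and 61 at least 2-fold higher in southern larvae.

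Abundant contigs had an unadjusted p under 0.05 more often than scarce ones, and differed at least 2-fold less often. The tested contigs were divided by mean level into 4 classes of 7774. In the most abundant class (a median of 499 counts per library) 20.1% had an unadjusted p under 0.05, 1.75% differed at least 2-fold, and the median standard error of a log2 difference was 0.11. In the scarcest class (a median of 11.3 counts) the shares were 11.3% and 14.7%, with a median standard error of 0.41. Contigs lower in southern larvae outnumbered those higher in each class at an unadjusted p under 0.05. From the scarcest class to the most abundant, 571, 573, 667 and 792 contigs were lower and 311, 310, 523 and 767 were higher. Whether depth sets this pattern was not tested.

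A direct reading of the libraries asks in how many contigs the latitudes do not overlap. The 3 population sums of the south all lay above, or all below, those of the north in 6448 contigs. These were 20.7% of those tested, where edgeR called 0%, and 3096 were higher and 3352 lower in southern larvae. If the order of the 6 sums were random, a share of 0.1 of contigs would separate in this way. At the stricter level of single pools, all 6 southern pools lay above or below all 6 northern pools in 566 contigs (1.82%), 256 higher and 310 lower. Fewer pools can overlap less, and leaving out any 1 pool gave 704 to 1134 such contigs: 720 without northern pool 1b, 930 without northern 1a, 1030 without northern 3b and 1134 without southern 1a. These contigs were chosen by the values at 20 °C, so their differences there are a description. The median absolute log2 difference was 0.79, with a range from 0.11 to 7.11. Of the 566, 205 differed at least 2-fold, 61 of them higher and 144 lower in southern larvae, and 54 at least 4-fold. They were more abundant than the tested contigs as a whole, with a median of 2.74 against 1.49 log2 CPM, and 226 of them fell in the most abundant class against 88 in the scarcest.

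The contigs that separated the latitudes were spread over Trinity genes much as the tested contigs were. All 31096 tested contigs came from 27058 Trinity genes, of which 3218 held 2 or more. The 566 contigs came from 551 Trinity genes. Of these 551, 14 held 2 or more of the 566 contigs, at most 3. In none of the 14 did such contigs of 1 gene point in opposite directions. Contigs of Trinity genes with 2 or more tested contigs made up 23.0% of the 566 and 23.3% of all tested contigs. Summing the contigs of each Trinity gene before the test also gave 0 edgeR calls among 27081 genes, with 4069 at an unadjusted p under 0.05.

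Of the contigs whose pools did not overlap and whose mean was at least 1 log2 CPM, those with the smallest p are described in each direction, 1 per Trinity gene. TRINITY_DN278797_c1_g5_i3 was higher in southern larvae. In summed populations it stood at 17.3, 19.3 and 18.7 CPM in southern populations 1, 2 and 3 and at 10.2, 10.4 and 8.51 CPM in northern populations 1, 2 and 3. Single southern pools ranged from 16.1 to 20.2 CPM around a median of 18.9, and single northern pools from 7.35 to 13.0 around 9.27. The southern pools were nearly level and the highest northern one, 1a, stayed below all of them. The log2 difference was 0.92 ± 0.12 (SE, edgeR adjusted p = 0.165), a 1.90-fold higher level. Its Trinity gene had 4 other tested contigs, whose log2 differences ran from -0.16 ± 0.37 to 0.32 ± 0.17 (SE). Whether the contigs of this gene differed from each other was not tested.

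TRINITY_DN9714_c3_g2_i5, a scarce contig, was also higher in southern larvae. Its summed populations were at 5.04, 5.06 and 5.09 CPM in the south and 1.85, 2.42 and 1.96 CPM in the north. Southern pools lay between 4.25 and 5.74 CPM (median 5.06) and northern pools between 1.58 and 3.18 CPM (median 1.95). The 3 southern sums were almost equal although the single pools spread by more than 1 CPM. The log2 difference was 1.28 ± 0.17 (SE, edgeR adjusted p = 0.165), or 2.44-fold. The other tested contig of its Trinity gene differed by 0.54 ± 0.24 in the same direction (edgeR adjusted p = 0.355).

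TRINITY_DN237397_c0_g1_i1 was the contig with the smallest p, 1.45e-05, and was lower in southern larvae. Northern populations 1, 2 and 3 stood at 9.27, 6.57 and 6.85 CPM and southern populations 1, 2 and 3 at 1.78, 1.48 and 1.19 CPM. Northern pools ranged from 4.27 to 10.7 CPM (median 8.27) and southern pools from 0.206 to 2.14 CPM (median 1.64). The groups were far apart, and the lowest southern pool, 3a, rested on 3 counts. The log2 difference was -2.35 ± 0.23 (SE, edgeR adjusted p = 0.164), which is a 5.09-fold higher level in the north.

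TRINITY_DN1963_c6_g9_i7 was lower in southern larvae at a higher level. Its populations were at 26.9, 27.3 and 30.8 CPM in the north and 11.9, 14.0 and 10.9 CPM in the south. Northern pools ranged from 21.2 to 32.8 CPM (median 28.7) and southern pools from 6.22 to 20.4 CPM (median 11.5). Southern pool 2b, at 20.4 CPM, came close to northern pool 1b, at 21.2 CPM, so the separation of single pools was narrow while that of populations was wide. The log2 difference was -1.21 ± 0.12 (SE, edgeR adjusted p = 0.164).

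**Figure D4:**
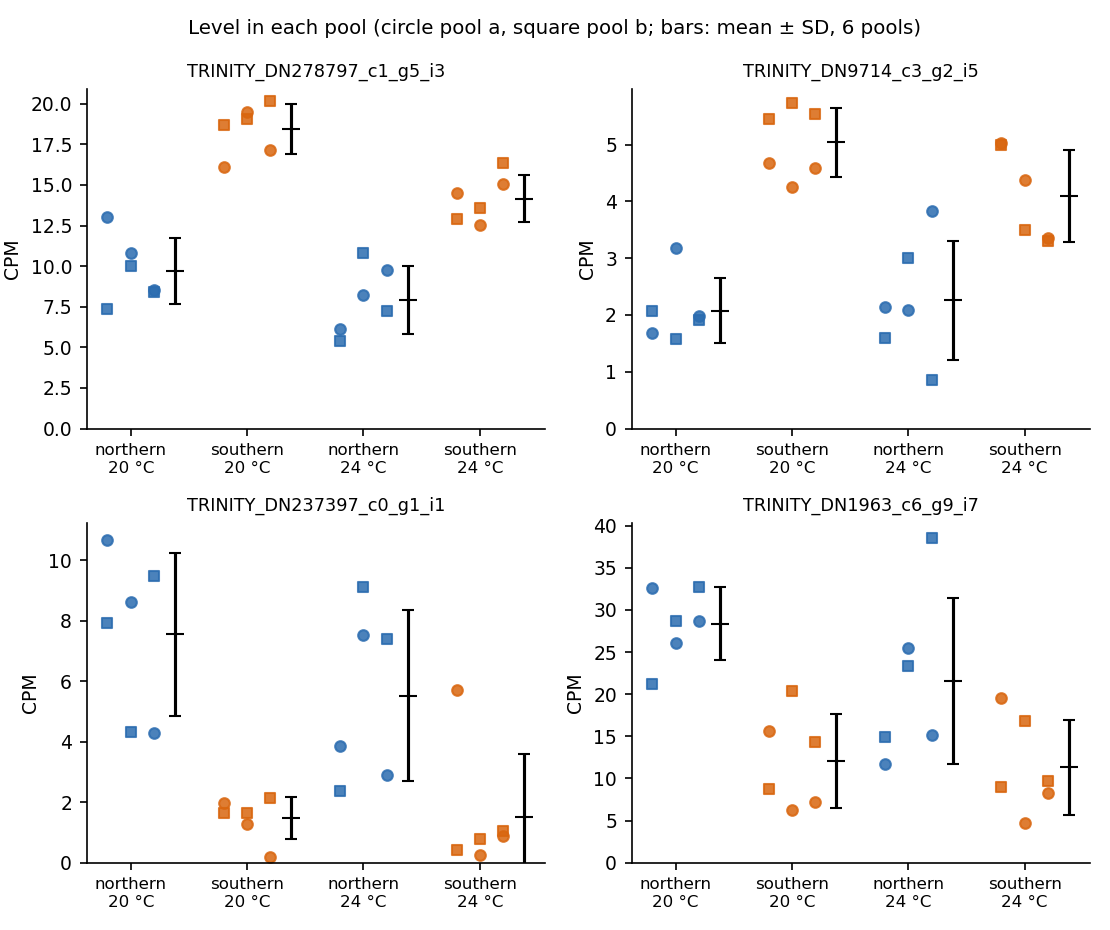
Level in CPM (vertical axis, from 0) of the 4 contigs in each pool of the 4 groups; blue is northern and orange southern, circles are pools a and squares pools b, points run from population 1 at the left to 3 at the right, and bars give mean ± SD of 6 pools, cut at 0 where they reach it. The groups do not overlap at 20 °C, and at 24 °C they overlap in all but TRINITY_DN278797_c1_g5_i3.

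Pools a and b held different larvae, so each gives the latitude difference on its own. Across the 31096 contigs the 2 sets of log2 differences had Pearson's r = 0.363 and Spearman's rho = 0.348, and 63.0% of contigs had the same sign in both. In the most abundant class r was 0.477. The points share the 6 populations but no library, and contigs are not independent of each other. Of the 2684 contigs at an unadjusted p under 0.05 in pools a, 2156 (80.3%) had the same sign in pools b, and of the 3222 in pools b, 2671 (82.9%) had the same sign in pools a. An unadjusted p under 0.05 and the same direction in both sets was found for 623 contigs, 23.2% of the pool a list and 19.3% of the pool b list, and for 24 contigs both sets passed with opposite directions.

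The larvae reared at 24 °C, whose levels did not enter the differences at 20 °C, mostly showed latitude differences of the same direction. The sign of the southern minus northern difference was the same at 20 and 24 °C in 68.6% of the tested contigs, with r = 0.413 and rho = 0.483 (r = 0.659 in the most abundant class). Of the 4514 contigs at an unadjusted p under 0.05 at 20 °C, 4039 (89.5%) had the same sign at 24 °C. Of the 566 contigs without overlap at 20 °C, 520 (91.9%) did, and the number was 512 to 528 when any 1 of the 24 °C pools was left out. The differences were smaller in the larvae that had not been used to choose the contigs. For the 256 contigs higher in southern larvae the median log2 difference was 0.50 at 20 °C and 0.29 at 24 °C, and for the 310 lower ones it was -0.96 and -0.63, where the median of all tested contigs was -0.02 at 24 °C. Because the contigs were chosen by their values at 20 °C, the first value of each pair is raised by the choice. At 24 °C 1086 contigs (3.49%) had no overlap between the pools of the latitudes, and 116 contigs had none at both temperatures, 20.5% of the 20 °C list and 10.7% of the 24 °C list. All 116 kept their direction, 37 higher and 79 lower in southern larvae.

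**Figure D5:**
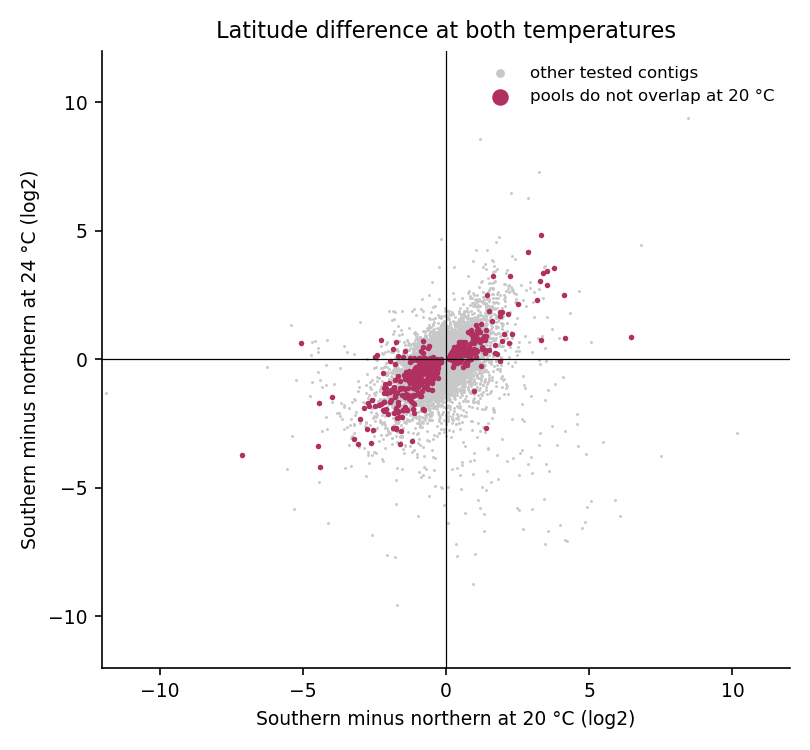
Southern minus northern log2 difference at 24 °C (vertical axis) against that at 20 °C (horizontal axis) for 31096 contigs; each temperature has its own libraries, and red points are the 566 contigs whose pools do not overlap at 20 °C. Of the red points, 520 lie in the lower left or upper right quadrant.

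The amount of RNA in these contigs followed the same pattern. At 24 °C the 256 contigs chosen as higher in southern larvae made up 0.862% ± 0.087 (SD, n = 6) of the counts of southern pools and 0.623% ± 0.0399 of those of northern pools. Southern pools ranged from 0.792% to 1.03% and northern pools from 0.586% to 0.692%, with no overlap. The 310 contigs chosen as lower took 1.06% ± 0.124 in southern and 1.54% ± 0.05 in northern pools at 24 °C, from 0.926% to 1.25% and from 1.48% to 1.61%, again with no overlap. At 20 °C, where the contigs were chosen, the shares were 0.919% and 0.691% for the first list and 1.06% and 1.68% for the second. The larvae at 24 °C came from the same populations, so these values show that the differences recurred in other larvae of the 6 populations, not in other populations.

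A test of whether the latitude difference itself changed between 20 and 24 °C called 0 contigs by edgeR (0%), with a smallest adjusted p of 0.918. An unadjusted p under 0.05 was found for 1237 of 31096 contigs, less than the share of 0.05 that would pass if no contig changed. DESeq2 called 37 contigs in the same model. Of the contigs described above, TRINITY_DN278797_c1_g5_i3 differed by 0.84 ± 0.19 at 24 °C against 0.92 at 20 °C, and a single northern pool came no closer than 10.8 CPM to the lowest southern pool at 12.5 CPM. TRINITY_DN9714_c3_g2_i5 differed by 0.84 ± 0.23 at 24 °C against 1.28 at 20 °C, with a northern pool at 3.83 CPM above southern pools that went down to 3.30 CPM. TRINITY_DN237397_c0_g1_i1 differed by -1.79 ± 0.70 and TRINITY_DN1963_c6_g9_i7 by -0.89 ± 0.28 at 24 °C, and single pools overlapped in both. In TRINITY_DN237397_c0_g1_i1 the overlap rested on southern pool 1a, at 5.70 CPM. The other southern pools stood between 0.243 and 1.05 CPM, below the lowest northern pool at 2.36 CPM. The joint fit to both temperatures gave changes of -0.07, -0.47, 0.33 and 0.34 for the 4 contigs, with standard errors of 0.24, 0.26, 0.71 and 0.27. The values at each temperature are from separate fits, so their gaps need not equal these changes.

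Populations of 1 latitude were also compared at 20 °C, with the 2 pools of each population as replicates. The edgeR test over populations called 0 contigs among the 3 northern populations (0%) and 0 among the 3 southern ones (0%). The smallest adjusted p values were 0.0828 and 0.345. An unadjusted p under 0.05 was found for 2158 and 2131 of 31096 contigs, where a share of 0.05 would pass if none differed. DESeq2 called 248 and 196. Without northern pool 1a edgeR called 116 contigs among northern populations, and without southern pool 3a or 2a it called 91 or 48 among southern ones, so the count of 0 depended on single pools. In those fits the population that lost a pool was a single library, assumed to vary like the others, and without 1a that library was northern 1b.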

How the data were processed

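The values are raw read counts per Trinity contig, deposited as 1 table with a column for each library. The submitters' processing notes list Subread 1.5.1, featureCounts, Trimmomatic 0.36 and FastQC 0.11.5 without their roles; aligner settings, assembly steps and strandedness were not given in the sources used here. The counting may have divided reads that forms of 1 gene or close copies share.

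Contigs at 0 in 10 or more of the 24 libraries were left out, and edgeR's filterByExpr (minimum count 10, minimum total 15, 4 groups) was applied. For latitude, the 2 pools of a population were summed and 3 southern sums were tested against 3 northern ones with edgeR 4.0.16 in R 4.3.3 (TMM, robust quasi-likelihood F test, Benjamini-Hochberg adjustment over all tested contigs). The change of the latitude difference between temperatures was tested on 12 sums with 1 intercept per population, a pairing given by the labels; deviations from group means of the same population at both temperatures correlated at -0.0448 (northern population 2) to 0.268. Populations were compared by F tests over the 12 pools. Alternatives used DESeq2 1.42.0 and limma 3.58.1. CPM are on TMM-scaled totals, log2 CPM have a prior count of 2, and shares are of raw totals. Each SE was derived from its log2 difference and F statistic. The tests were first checked on simulated counts. Those for the latitude test held no differences between populations of a latitude. The check therefore cannot show how that test behaves where such differences exist.

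Contigs are named by this rule: mean log2 CPM of at least 1, no overlap between 6 southern and 6 northern pools, the 2 smallest p in each direction whether or not they passed adjustment, 1 contig per Trinity gene; 4 others are named in the closing section and were chosen after their values were seen. The comparison and the rules were chosen with earlier results of these data known. The lists of named pathways could not be run. Larvae of a population share a source, and p-values measure the spread between the sampled populations and pools. Chi-square per degree of freedom between the pools of a population was 11.7 to 61.5, so neither was a copy of the other. Limits given for counts of 0 cover counting error only.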

Additional observations from a re-analysis of the deposited data

Results flagged for a closer look

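In 28 checks of single libraries against the other 5 of their group, 3 stood apart, where chance gives about 1 in 20. Northern pool 1b at 20 °C had 15.03% of its counts in its 10 most abundant contigs, and the next lowest northern pool had 20.23%. Northern pool 2a held TRINITY_DN9714_c3_g2_i5 at 3.176 CPM, above the next northern pool at 2.07 CPM and below all southern pools. Southern pool 2a at 24 °C gave the contigs chosen as higher in southern larvae 1.03% of its counts, and the next southern pool gave them 0.877%.

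Among the contigs left out for zeros, 1 was counted in all 6 northern and 0 southern pools at 20 °C, and 1 in all 6 southern and 0 northern pools. TRINITY_DN26480_c0_g1_i3 had 3 to 20 counts in the northern pools (median 14). At 24 °C it had 6 to 44 counts in the 6 northern pools, and 1 southern pool had 3 counts. TRINITY_DN69977_c0_g1_i3 had 1 to 41 counts in the southern pools at 20 °C (median 9.5) and 1 to 53 at 24 °C, where 1 northern pool had 2. A count of 0 allows up to 3 counts in a library, so the lowest pools of both contigs are at or under that limit. Among the tested contigs 0 were counted in all 6 pools of 1 latitude at 20 °C and none of the other.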

How the results depend on the processing

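Between latitudes at 20 °C, 0 edgeR calls were also made with RLE size factors, without the filter on low counts, with the contigs rich in zeros kept, with a fit that was not robust, with either pool alone and with Trinity genes summed. DESeq2 called 919 contigs, and 12 pools taken as independent 72 (a fit that ignores that pools share a population). Limma with population as a random block called 24, with pools of a population taken as nearly independent (correlation 0.0288). A fit to 12 sums of both temperatures called 3. Leaving out populations or pools gave 0 to 23: 23 without northern population 3, 2 without southern population 2 or 3, and 1 without southern population 1 or northern pool 2a. Pool a alone had 2684 contigs at an unadjusted p under 0.05, against 4514. The number of a population joins no northern to any southern population. Same-numbered sums deviated from their group means with r = 0.116, -0.159 and 0.0886, and not every population correlated best with its own number; the number as a replicate block gave 2 calls.

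Counts of contigs without overlap rise when libraries are left out, since fewer values can overlap: 9077 to 11530 for populations and 704 to 1807 for pools (930, 1030 and 1134 without northern pools 1a and 3b and southern pool 1a). For the change of the latitude difference between temperatures DESeq2 called 37 contigs; the same test without population in the model, the other edgeR settings and each population left out gave 0. Among northern populations DESeq2 called 248 contigs, a fit that was not robust 1, and pools left out in turn 0 to 116; among southern populations DESeq2 called 196, and pools left out in turn 0 to 91. The cause of the gap between DESeq2 and edgeR was not tested. Of 29 alternatives, TRINITY_DN278797_c1_g5_i3 and TRINITY_DN9714_c3_g2_i5 passed the threshold in 3 each (edgeR, DESeq2 or limma adjusted p from 1.5e-06 to 0.531 and from 1.71e-05 to 0.535), TRINITY_DN237397_c0_g1_i1 in 2 (4.17e-13 to 0.531) and TRINITY_DN1963_c6_g9_i7 in 1 (1.02e-10 to 0.511). Leaving out pools for the count of contigs without overlap, for the share of variance and for the signs at 24 °C was chosen after the data were seen.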

Other observations

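Most contigs with the widest differences at 20 °C still overlapped between single pools of the latitudes. Of the 398 tested contigs that differed at least 4-fold, 240 were lower and 158 higher in southern larvae. No overlap between single pools was seen in 54 of the 398, against 566 (1.82%) of all 31096 tested contigs. A choice by wide differences at 20 °C favours separation there, so these counts are a description. The highest of the 12 pools was northern 1b in 89 of the 398, northern 2b in 80 and southern 3b in 70, against 4 to 35 in each of the other 9. How often each pool was the highest over all tested contigs was not counted. Whether these pools set the differences was not tested. Among the 398, 13 contigs had a mean of at least 100 CPM in 1 latitude, 10 lower and 3 higher in southern larvae. No overlap was seen in 3 of the 13. The 2 contigs described next were chosen from these 13 after their values were seen, and neither has an edgeR adjusted p under 0.05.

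TRINITY_DN68428_c10_g2_i3 was abundant in every northern pool and varied widely in southern ones. At 20 °C it stood at 587, 308, 822, 957, 492.6 and 639 CPM in northern pools 1a, 1b, 2a, 2b, 3a and 3b, and at 4.02, 1.77, 76.5, 1.01, 18.3 and 81.0 CPM in southern pools 1a, 1b, 2a, 2b, 3a and 3b. The log2 difference was -4.43 ± 1.09 (SE, edgeR adjusted p = 0.236). At 24 °C southern pool 1a stood at 924.9 CPM and the other 5 southern pools between 1.49 and 97.4 CPM, while northern pools ranged from 85.5 to 1228 CPM. Both pools of southern population 1 were under 5 CPM at 20 °C. Another contig of the same Trinity gene was also among the 3 abundant contigs without overlap, with a log2 difference of -2.73 ± 0.49 (SE). At 24 °C that contig too was high in southern pool 1a, at 141.4 CPM, with the other southern pools between 4.70 and 28.7 CPM.

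TRINITY_DN222813_c0_g1_i2 was nearly all or none. At 20 °C it stood at 917, 2626 and 2160 CPM in northern pools 1a, 1b and 2b, and at or below 0.389 CPM in the other 9 pools of both latitudes. At 24 °C it was at 1108 CPM in northern pool 1b and 429.5 CPM in southern pool 1a, and at or below 1.05 CPM in the other 10. It was thus found at a high level in 5 of the 24 libraries, in both latitudes and at both temperatures. Pools of 1 population differed in it at 20 °C (northern 2a and 2b) and at 24 °C (northern 1a and 1b).

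Of the contigs left out for zeros, 194 were at 0 in all 12 southern and 18 in all 12 northern libraries. At 20 °C the 194 contigs together had only 19 to 559 counts in a northern pool, whereas at 24 °C they reached 10632 counts in northern pool 3a, so they add little to the comparison at 20 °C.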
